A study of Mus musculus with 12 samples.

Results

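The TGFb superfamily receptors examined here are 10 mouse genes, namely the type I receptor genes Acvr1, Acvr1b, Bmpr1a, Bmpr1b and Tgfbr1, the type II receptor genes Tgfbr2, Acvr2a and Bmpr2, and the co-receptor genes Eng and Tgfbr3. They were taken by name: every gene probe whose gene name in the scanner files is one of the 10 was used, whatever its values. This gave 16 of the 39429 gene probes of the array, and 10 of the 24146 genes tested. All 16 probes were well above background on all 12 arrays, so that no receptor was lost to the filter on dim probes. Acvr1, Acvr1b, Acvr2a, Bmpr1b, Tgfbr1 and Tgfbr2 had 2 probes each, and the brighter of the 2 stood for the gene.

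RNA came from neural stem cells of the cerebral cortex of mouse embryos at E12.5. Control cells were stably transfected with an shRNA of random sequence, knockdown cells with an shRNA against JMJD3, the histone H3 lysine 27 demethylase encoded by Kdm6b. TGFb treatment of a line was at 5 ng/ml and lasted 2.5 h. The 4 groups, control with vehicle, control with TGFb, knockdown with vehicle and knockdown with TGFb, had 3 samples each, read on 1-colour arrays. The labels name 1 hairpin (sh2 JMJD3) and no second clone, so the knockdown and the line that carries it cannot be told apart. The labels do not say which TGFb isoform was added.

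Ligands of this superfamily bind type II receptors, constitutively active serine/threonine kinases, which then phosphorylate and switch on type I receptors. The type I receptor sets the branch: Tgfbr1 and Acvr1b phosphorylate Smad2 and Smad3, while Acvr1, Bmpr1a and Bmpr1b phosphorylate Smad1, Smad5 and Smad9. Endoglin (Eng) and betaglycan (Tgfbr3) bind ligand without a kinase of their own and pass it to the signalling pair. In the embryonic cortex the BMP branch is known for its part in patterning and astrocyte fate, and TGFb for effects on progenitor division and neuronal differentiation.

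Per array, the 75th percentile of processed signals was 3175 to 4462, between 70.2% and 78.4% of probes stood well above background, and saturation was seen at 0 spots. Levels are given below as log2 of the processed signal relative to that percentile of the same array, so that a level below 0 means a signal under the percentile. Arrays of 1 group correlated with r from 0.994 to 0.998 over genes, which are not independent replicates. All 10 neural stem cell markers examined, Nes and Sox2 among them, were well above background on all arrays. So were 6 of 7 neuron, 5 of 5 astrocyte and 6 of 7 endothelial markers, so that detection alone does not single out neural stem cells. Kdm6b was lower in the knockdown line by 1.16 on the log2 scale with vehicle (2.24-fold, limma adjusted p = 1.05e-07) and by 1.40 with TGFb (2.63-fold, adjusted p = 2.85e-08). The arrays lie on 4 slides, and arrays that share a slide deviated together. Values with slide as a block or within single slides are therefore given beside some of the results. Where they are absent, this does not mean that slide had no part. Nothing says that replicates came from separate cultures, so a p-value reflects only how these samples vary, possibly for technical reasons. In such bulk samples, fewer cells of a type and less RNA per cell cannot be told apart.

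TGFb moved receptor transcripts in both directions within 2.5 h. In control cells the transcripts of Eng, Acvr1, Acvr1b and Bmpr2 rose, and those of Bmpr1b, Tgfbr2 and Tgfbr3 fell. These are 4 receptor genes higher and 3 lower of 10 (limma, 2-sided, adjusted p under 0.05 over all genes), where 10.2% of all genes tested passed, 5.43% higher and 4.72% lower. The changes ran from -0.85 (Bmpr1b) to 1.04 (Eng), with a median of 0.17 for the 10 genes beside -0.01 for all genes. For 7 of the 10 genes the arrays with and without TGFb did not overlap, beside 22.1% of all genes. In knockdown cells 3 genes rose (Eng, Acvr1, Acvr1b) and 2 fell (Bmpr1b, Tgfbr2), where 9.49% of all genes passed, 4.74% higher and 4.75% lower. The arrays with and without TGFb were apart there for 9 of the 10 genes, beside 24.1% of all genes. Such counts do not hold slide fixed, and only slide 3 held both knockdown groups. With slide as a block, the knockdown change of Tgfbr1 went from 0.34 to 0.16 and that of Bmpr1a from 0.19 to 0.11. That of Tgfbr3 went from -0.31 to -0.53. With that block 8 of the 10 genes passed in control cells and 6 in knockdown cells. Of all 24146 genes, 2905 passed with the block in control cells and 1905 in knockdown cells, beside 2451 and 2291 without it.

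Markers of other cell types moved with TGFb as well. Of 6 oligodendrocyte lineage markers 3 were lower in control cells, Olig2 (-0.88, limma adjusted p = 7.08e-07), Pdgfra (-0.52, adjusted p = 0.000281) and Olig1 (-0.17, adjusted p = 0.0410). In knockdown cells Olig2 (-0.48) and Pdgfra (-0.34) were lower. The summed signal of that list, relative to the 75th percentile, was 45.8 to 49.7 with vehicle and 37.2 to 37.6 with TGFb in control cells, and 40.9 to 43.1 against 35.1 to 38.3 in knockdown cells, apart in both lines. Of 5 astrocyte markers 1 was called higher in each line, Gfap (0.93 and 0.46). The sums of that list were 3.46 to 3.80 with vehicle and 4.02 to 4.31 with TGFb in control cells. In knockdown cells they overlapped (3.33 to 3.71 and 3.55 to 4.38). S100b, the brightest of the 5 and not called, had control means of 1.37 with vehicle and 1.67 with TGFb, beside -5.15 and -4.22 for Gfap. Aldh1l1 and Slc1a2 had lower control means with TGFb, and Aqp4 a higher one. Acta2, 1 of 4 pericyte and smooth muscle markers tested, rose by 0.88 and 0.39. Col1a1, 1 of 4 fibroblast and meningeal markers tested, rose by 1.11 and 1.27. The sums of both lists overlapped between treatments in control cells. In knockdown cells the pericyte and smooth muscle sums overlapped, but the fibroblast and meningeal sums were lower with TGFb (3.80 to 4.04 against 4.18 to 4.75). The other markers of that list, Col1a2, Dcn and Foxc1, had lower means with TGFb there. The list median was -0.19, with 0 markers called lower. Of 10 neural stem cell markers 1 was higher and 2 were lower in each line. The 6 neuron markers tested gave 0 calls with TGFb (limma; in control cells 1 had an unadjusted p under 0.05), although in control cells their sums with vehicle (12.8 to 14.6) lay above all those with TGFb (lowest 11.9), and the 5 microglia and macrophage markers tested gave 0 calls (0 at an unadjusted p under 0.05). The part of these shifts in the receptor changes was not tested.

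**Figure D1:**
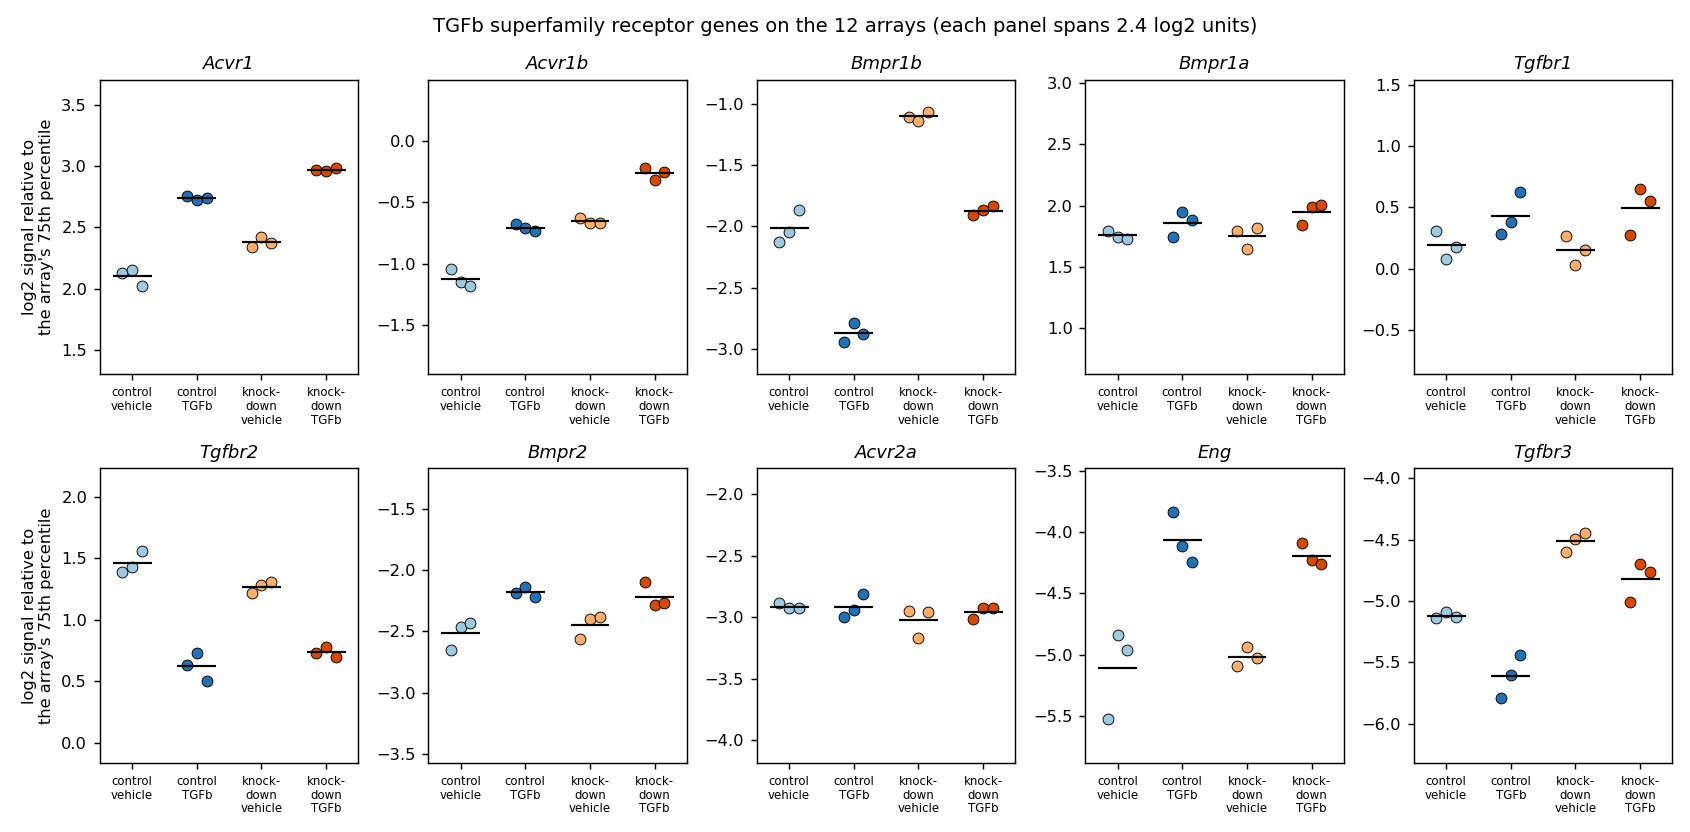
Level of each receptor gene on each of the 12 arrays, as log2 of signal over the 75th percentile of that array, with 1 point per array and a line at the mean of each group of 3. Each panel spans the same range of 2.4 log2 units around its own centre. Acvr1 is higher on every TGFb array than on any vehicle array of either line, Tgfbr2 is lower on every TGFb array, and Bmpr1b is lower with TGFb but higher in the knockdown line.

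To show the sequences in front of the genes with the largest changes, the 250 bases before the annotated start were taken from RefSeq for Eng and Acvr1, which rose, and for Tgfbr2 and Bmpr1b, which fell. The table of RefSeq promoters (build GRCm38.p6) matched 9 of the 10 genes (all but Tgfbr3) with 12 promoters in all. Each sequence is written 5′ to 3′ on the strand of the gene and ends just before the start, and capitals mark the 4 bases of the Smad box, GTCT, or AGAC on the other strand.
Eng (chr2:32646345-32646594, + strand): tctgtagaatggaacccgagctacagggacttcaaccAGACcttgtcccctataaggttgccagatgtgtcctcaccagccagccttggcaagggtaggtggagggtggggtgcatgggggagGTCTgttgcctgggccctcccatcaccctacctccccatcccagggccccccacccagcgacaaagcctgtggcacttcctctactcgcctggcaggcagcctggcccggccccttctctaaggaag
Acvr1 (chr2:58566829-58567078, - strand): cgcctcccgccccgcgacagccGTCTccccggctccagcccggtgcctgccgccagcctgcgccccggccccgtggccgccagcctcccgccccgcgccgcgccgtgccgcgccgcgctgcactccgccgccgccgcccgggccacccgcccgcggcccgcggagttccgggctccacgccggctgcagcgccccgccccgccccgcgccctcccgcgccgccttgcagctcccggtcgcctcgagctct
Tgfbr2 (chr9:116175364-116175613, - strand): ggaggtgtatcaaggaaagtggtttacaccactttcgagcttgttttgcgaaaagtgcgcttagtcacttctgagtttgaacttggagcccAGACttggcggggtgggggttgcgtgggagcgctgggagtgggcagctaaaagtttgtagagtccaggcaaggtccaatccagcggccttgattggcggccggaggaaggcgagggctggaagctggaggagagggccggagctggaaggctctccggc
Bmpr1b (chr3:141931589-141931838, - strand): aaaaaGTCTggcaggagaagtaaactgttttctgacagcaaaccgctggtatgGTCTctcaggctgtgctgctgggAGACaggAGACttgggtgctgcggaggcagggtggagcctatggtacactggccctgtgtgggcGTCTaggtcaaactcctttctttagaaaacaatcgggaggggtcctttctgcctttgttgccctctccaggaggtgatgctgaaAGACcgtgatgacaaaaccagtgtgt
The Eng window holds 2 Smad boxes, Acvr1 1, Tgfbr2 1 and this Bmpr1b window 6, while the other Bmpr1b windows in the table, for other annotated starts, hold 3 and 2. All motifs were searched on both strands. GTCT on either strand is in 82.87% of the 32841 promoters of the same length, with a median of 2 per promoter, so most windows of this length hold it. The GC-rich Smad element GGCGCC, found in 9.589% of promoters, is in none of these 4 windows and in 1 window each of Tgfbr1, Bmpr1a and Bmpr2. The AP-1 site TGANTCA (N is any base), found in 6.751% of promoters, has 0 matches in the 12 windows. The GC box GGGCGG, found in 32.75% of promoters, has 6 matches before Acvr1, 4 before Acvr1b and 4 before Bmpr1a. It has 2 before Acvr2a, 1 before Bmpr2, 2 and 0 in the Tgfbr1 windows, and 0 in the windows of Eng, Tgfbr2 and Bmpr1b. CpG pairs number 4 before Eng, 12 before Tgfbr2, 5 in the Bmpr1b window shown and 46 before Acvr1, beside a median of 6 over all promoters. Eng and Bmpr1b, which moved in opposite directions, thus have few CpG pairs in these windows, while Acvr1b (42), Bmpr1a (36), Acvr2a (49) and Bmpr2 (22) have many. The Tgfbr1 windows, for different annotated starts, have 29 and 3. Such matches describe letters only and do not show that a factor binds there.

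Among the type I receptors, Acvr1 (ALK2, a receptor of the BMP branch) gave the smallest p of the 10 genes with TGFb. In mm9 its probe covers chromosome 2 from 58298937 to 58298996 on the minus strand. With vehicle the control arrays read 2.13, 2.15 and 2.02 and with TGFb 2.75, 2.72 and 2.74. In knockdown cells the readings were 2.34, 2.42 and 2.37 with vehicle and 2.97, 2.96 and 2.98 with TGFb. No TGFb array of either line came down to any vehicle array, and within each treatment no knockdown array came down to a control array. The rise was 0.64 ± 0.04 (SE) or 1.55-fold in control cells (limma adjusted p = 1.09e-06) and 0.59 ± 0.04 or 1.51-fold in knockdown cells (adjusted p = 2.28e-06). Within slides 2 and 3 the control rise was 0.60 and 0.70, and the knockdown rise was 0.59 within slide 3, the 1 slide with both knockdown groups.

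Acvr1b (ALK4), the type I receptor of activin and Nodal, rose less. Its probe is on chromosome 15 from 101043956 to 101044015 (mm9, plus strand). Control arrays read -1.04, -1.15 and -1.18 with vehicle and -0.67, -0.71 and -0.74 with TGFb. The knockdown arrays read -0.63, -0.67 and -0.67 with vehicle and -0.22, -0.32 and -0.25 with TGFb. The 4 groups of arrays did not overlap, and knockdown cells with vehicle stood slightly above control cells with TGFb. TGFb raised it by 0.42 ± 0.05 or 1.33-fold in control cells (limma adjusted p = 0.000127). In knockdown cells the rise was 0.39 ± 0.05 or 1.31-fold (adjusted p = 0.000238).

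Bmpr1b (ALK6), a type I receptor of BMPs and GDF5, fell with TGFb and was higher in the knockdown line. The probe is on chromosome 3 from 141500694 to 141500753 (mm9, minus strand). Control arrays read -2.12, -2.04 and -1.87 with vehicle and -2.94, -2.78 and -2.87 with TGFb. Knockdown arrays read -1.11, -1.14 and -1.07 with vehicle and -1.91, -1.87 and -1.84 with TGFb. Knockdown cells with TGFb thus overlapped control cells with vehicle, while every other pair of groups was apart. The fall was -0.85 ± 0.07 (1.81-fold, limma adjusted p = 6.97e-06) in control cells and -0.77 ± 0.07 (1.70-fold, adjusted p = 1.95e-05) in knockdown cells. In control cells it was -0.90 and -0.91 within slides, and in knockdown cells -0.84.

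The other type I receptor genes, Bmpr1a (ALK3, a BMP receptor) and Tgfbr1 (ALK5, the type I receptor that Tgfbr2 recruits), did not pass the test in either line. Bmpr1a read 1.73 to 1.79 in control cells with vehicle and 1.75 to 1.95 with TGFb, a change of 0.10 ± 0.06 (limma adjusted p = 0.501). In knockdown cells it read 1.65 to 1.82 and 1.85 to 2.00, a change of 0.19 ± 0.06 (adjusted p = 0.107). Tgfbr1 read 0.08 to 0.31 with vehicle and 0.29 to 0.62 with TGFb in control cells, a change of 0.24 ± 0.11 whose 95% interval ran from -0.01 to 0.49 (adjusted p = 0.285). The knockdown cells gave readings of 0.03 to 0.27 and 0.27 to 0.65, a change of 0.34 ± 0.11 (interval 0.09 to 0.59, adjusted p = 0.0949). With slide as a block the Tgfbr1 change was 0.19 in control cells and passed (adjusted p = 0.0233), and it was 0.16 in knockdown cells and did not (adjusted p = 0.111). In knockdown cells Tgfbr1 passed with normexp background correction (0.33, adjusted p = 0.0146), with the authors' processed values (0.33, adjusted p = 0.0168) and without knockdown TGFb replicate 1 (0.45, adjusted p = 0.0235). Without that array Bmpr1a passed too (0.24, adjusted p = 0.0471), so that 7 receptor genes were called in place of 5. Of all 24146 genes, 2422 were called there in place of 2291. The 2 knockdown TGFb arrays left in that retest are both on slide 4, which held no vehicle array. TGFb and slide therefore cannot be told apart there in knockdown cells. With all arrays and slide as a block, Bmpr1a changed by 0.11 in knockdown cells (adjusted p = 0.410), and within slide 3 by 0.02.

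Of the type II receptors, Tgfbr2, the receptor that binds TGFb and recruits Tgfbr1, fell in both lines. In mm9 the probe covers chromosome 9 from 115997155 to 115997214 on the minus strand. Control arrays read 1.39, 1.43 and 1.56 with vehicle and 0.63, 0.73 and 0.50 with TGFb. Knockdown arrays read 1.22, 1.29 and 1.30 with vehicle and 0.73, 0.78 and 0.69 with TGFb. All 6 TGFb arrays lay below all 6 vehicle arrays. The fall was -0.84 ± 0.06 (1.79-fold, limma adjusted p = 3.19e-06) in control cells and -0.53 ± 0.06 (1.45-fold, adjusted p = 0.000151) in knockdown cells. Within slides it was -0.80 and -0.84 in control cells and -0.57 in knockdown cells.

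Bmpr2, the type II receptor of BMPs, rose slightly in control cells. Its probe is on chromosome 1 from 59927276 to 59927335 (mm9, plus strand), and control arrays read -2.65, -2.46 and -2.43 with vehicle and -2.19, -2.14 and -2.22 with TGFb. The change of 0.33 ± 0.08 (1.26-fold) had a limma adjusted p of 0.0206, and 0.00444 with slide as a block. It did not pass with normexp background correction (0.31, adjusted p = 0.219), with the authors' processed values (0.32, adjusted p = 0.215) or with scaling to the array median (0.33, adjusted p = 0.160). It was also lost without control vehicle replicate 1 (0.26, adjusted p = 0.0799), control TGFb replicate 1 (0.33, adjusted p = 0.0534) or control TGFb replicate 2 (0.31, adjusted p = 0.0803). In knockdown cells, with readings of -2.56 to -2.39 with vehicle and -2.29 to -2.10 with TGFb, the change was 0.23 ± 0.08 (adjusted p = 0.111). Acvr2a, the type II receptor of activins, differed least with TGFb, by -0.00 ± 0.08 in control cells (interval -0.17 to 0.16, adjusted p = 0.996) and by 0.07 ± 0.08 in knockdown cells (interval -0.10 to 0.23, adjusted p = 0.676). Its 12 arrays read from -3.17 to -2.81, and the groups with and without TGFb overlapped in both lines.

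Eng, the co-receptor endoglin, showed the largest rise among the receptor genes in each line. The probe is on chromosome 2 from 32537268 to 32537327 (mm9, plus strand). Control arrays read -5.52, -4.84 and -4.96 with vehicle and -3.84, -4.11 and -4.24 with TGFb. Knockdown arrays read -5.09, -4.93 and -5.02 with vehicle and -4.09, -4.23 and -4.26 with TGFb. All TGFb arrays lay above all vehicle arrays, and control vehicle replicate 1 was the lowest array of all. The rise was 1.04 ± 0.17 (2.06-fold, limma adjusted p = 0.00143) in control cells and 0.82 ± 0.17 (1.77-fold, adjusted p = 0.00793) in knockdown cells. Without control vehicle replicate 1 the control rise was 0.83 (adjusted p = 0.00175). Normexp background correction gave 0.74 and 0.55, and the authors' processed values gave 0.73 and 0.47, all of which passed. Endoglin is best known from endothelial cells: of 7 endothelial markers Cdh5 was above background on no array, and the other 6 gave 0 calls with TGFb in either line (0 also at an unadjusted p under 0.05). Their summed signal, relative to the 75th percentile, was 0.750 to 0.876 in control cells with vehicle and 0.715 to 0.882 with TGFb, and 0.757 to 0.821 and 0.752 to 0.932 in knockdown cells.

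Tgfbr3, the co-receptor betaglycan, fell in control cells. The Tgfbr3 probe covers chromosome 5 from 107535818 to 107535877 (mm9, minus strand). Control arrays read -5.14, -5.09 and -5.13 with vehicle and -5.79, -5.60 and -5.44 with TGFb, with no overlap. Knockdown arrays read -4.60, -4.49 and -4.45 with vehicle and -5.00, -4.69 and -4.76 with TGFb, again apart and all above the control arrays. In control cells the change was -0.49 ± 0.12 (1.41-fold, limma adjusted p = 0.0187), and -0.61 with slide as a block (adjusted p = 0.00228). Normexp background correction gave -0.26 (adjusted p = 0.0484) and the authors' processed values -0.31 (adjusted p = 0.0237). The call was lost when any 1 of the 3 control vehicle arrays was left out (adjusted p = 0.0503, 0.0594 and 0.0585), or control TGFb replicate 1 (-0.40, adjusted p = 0.0638) or 2 (-0.50, adjusted p = 0.0537). In knockdown cells the change was -0.31 ± 0.12 and did not pass (adjusted p = 0.157), while with slide as a block it was -0.53 (adjusted p = 0.0185), and within slide 3 it was -0.56.

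**Figure D2:**
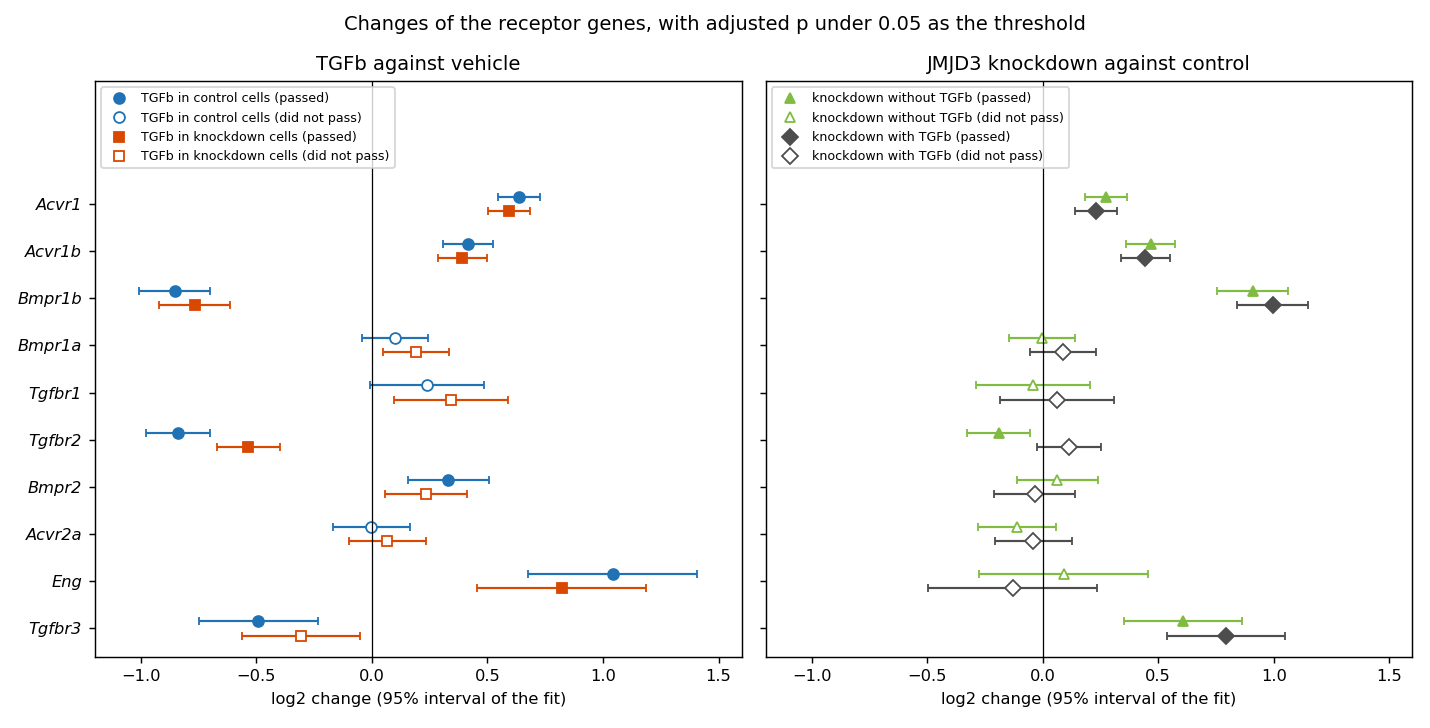
Log2 change of each receptor gene with TGFb (left, control cells as circles and knockdown cells as squares) and in knockdown against control cells (right, vehicle as triangles and TGFb as diamonds), with the 95% interval of the limma fit. Filled symbols passed an adjusted p of 0.05. Left, Bmpr1b, Tgfbr2 and Tgfbr3 lie below 0 while Eng reaches 1.04, and right, Bmpr1b and Tgfbr3 lie farthest above 0.

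The next comparison asked whether a receptor gene responded to TGFb differently in the lines. In the test of the difference of responses, 0 of the 10 genes passed (limma, adjusted p), and 1, Tgfbr2, had an unadjusted p under 0.05. Of all 24146 genes tested, 21 passed (0.087%) and 1233 had an unadjusted p under 0.05. For Tgfbr2 the response was less negative in knockdown cells by 0.31 ± 0.09, with a 95% interval from 0.11 to 0.50 and an unadjusted p of 0.00541 (adjusted p = 0.529, and 0.224 with slide as a block). Within slide 3, the 1 slide with all 4 groups, that difference was 0.26. At the dimmer Tgfbr2 probe the difference was 0.15 ± 0.13 (limma with 1 test per probe, adjusted p = 0.964). The dimmer Acvr1b probe gave 0.30 ± 0.15 in that fit (adjusted p = 0.964), where the brighter gave -0.02. At the probe that stood for each gene, the intervals of the other 9 genes included 0. They were narrowest for Acvr1 (-0.17 to 0.09) and Acvr1b (-0.17 to 0.13) and widest for Eng (-0.74 to 0.30), and for Bmpr1b the interval ran from -0.13 to 0.31. With 3 arrays a group, these data do not exclude a difference of any size inside those intervals.

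**Figure D3:**
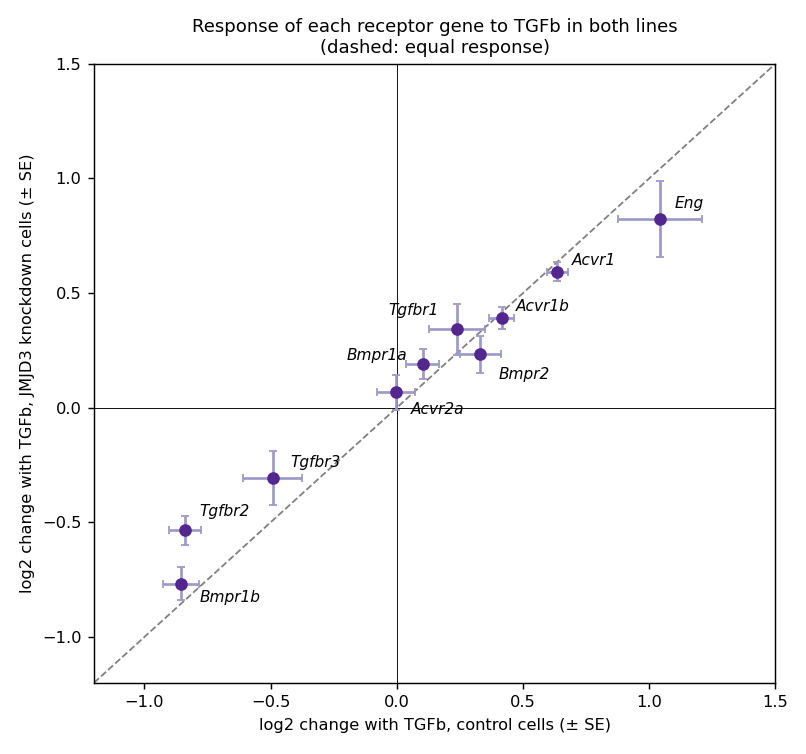
Log2 change with TGFb in control cells (x axis) against that in JMJD3 knockdown cells (y axis) for the 10 receptor genes, with SE bars, and a dashed line where both are equal. Tgfbr2 lies farthest above the line relative to its SE, with -0.84 in control and -0.53 in knockdown cells.

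Knockdown against control cells was compared under each treatment. With vehicle, Bmpr1b, Tgfbr3, Acvr1b and Acvr1 were higher in the knockdown line and Tgfbr2 was lower. These are 5 of 10 genes, where 27.8% of all genes passed. With TGFb, Bmpr1b, Tgfbr3, Acvr1b and Acvr1 were again higher, 4 of 10 genes, where 29% of all genes passed. Over all genes the calls in the knockdown line were 3020 higher and 3702 lower with vehicle, and 2902 higher and 4096 lower with TGFb. Markers differed between the lines too, and their part was not tested: with vehicle 4 of 10 neural stem cell markers were higher and 3 lower, and 1 of 6 oligodendrocyte lineage markers was higher and 3 lower, and with TGFb the counts were 3 and 1, and 0 and 1. The arrays of the lines were apart for 6 of the 10 genes with vehicle, the 5 that passed and Acvr2a (41.1% of all genes) and for 4 with TGFb (38.7%).

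Bmpr1b differed most, by 0.91 ± 0.07 (1.88-fold, limma adjusted p = 3.55e-06) with vehicle and 1.00 ± 0.07 (1.99-fold, adjusted p = 1.88e-06) with TGFb. Within slides 1, 2 and 3 it was higher with vehicle by 1.02, 0.90 and 0.80, and within slides 3 and 4 with TGFb by 0.87 and 1.02. For Tgfbr3 the values were 0.61 ± 0.12 (1.52-fold, adjusted p = 0.00237) and 0.79 ± 0.12 (1.73-fold, adjusted p = 0.00039). Normexp background correction gave Tgfbr3 values of 0.38 (adjusted p = 0.00228) and 0.47 (adjusted p = 0.000565). Its within-slide values lay between 0.54 and 0.69 with vehicle and were 0.60 and 0.71 with TGFb. Acvr1b was higher by 0.47 ± 0.05 (adjusted p = 3.39e-05) with vehicle and 0.44 ± 0.05 (adjusted p = 5.03e-05) with TGFb, and Acvr1 by 0.27 ± 0.04 (adjusted p = 0.000498) and 0.23 ± 0.04 (adjusted p = 0.00156). With scaling to the array median the last of these was 0.21 and did not pass (adjusted p = 0.0537).

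Tgfbr2 was lower in knockdown cells with vehicle by 0.19 ± 0.06 (1.14-fold, limma adjusted p = 0.0417), and by 0.18, 0.14 and 0.26 within slides 1, 2 and 3. That call did not pass in 16 of 24 alternatives, among them normexp background correction (-0.18, adjusted p = 0.117) and the authors' processed values (-0.16, adjusted p = 0.178), and without control vehicle replicate 3 the value was -0.14 (adjusted p = 0.170). It was also lost without any 1 of the other arrays except control vehicle replicate 1 and control TGFb replicates 2 and 3. With TGFb the difference was 0.11 ± 0.06 and did not pass (adjusted p = 0.208). Eng, Tgfbr1, Bmpr1a, Bmpr2 and Acvr2a passed under neither treatment. For Eng the 95% interval ran from -0.27 to 0.46 with vehicle and from -0.50 to 0.24 with TGFb, for Tgfbr1 from -0.29 to 0.21 and from -0.19 to 0.31.

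The order of the group means differed from gene to gene. Acvr1, Acvr1b, Bmpr2 and Eng were lowest in control cells with vehicle, and Tgfbr2, Tgfbr3 and Bmpr1b were lowest in control cells with TGFb. For Acvr1 the order was control with vehicle (2.10 ± 0.07, SD, n = 3), knockdown with vehicle (2.38 ± 0.04), control with TGFb (2.74 ± 0.02) and knockdown with TGFb (2.97 ± 0.01), and no neighbours in that order overlapped. For Bmpr1b it was control with TGFb (-2.87 ± 0.08), control with vehicle (-2.01 ± 0.13), knockdown with TGFb (-1.87 ± 0.04) and knockdown with vehicle (-1.10 ± 0.04), where the middle pair overlapped. Tgfbr2 ran from control with TGFb (0.62 ± 0.11) and knockdown with TGFb (0.73 ± 0.04), which overlapped, to knockdown with vehicle (1.27 ± 0.05) and control with vehicle (1.46 ± 0.09). Eng ran from control with vehicle (-5.11 ± 0.37) and knockdown with vehicle (-5.02 ± 0.08), which overlapped, to knockdown with TGFb (-4.19 ± 0.09) and control with TGFb (-4.06 ± 0.21), which overlapped too. For Tgfbr1, Bmpr1a and Acvr2a each group overlapped the next in the order.

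Second probes gave another reading of 6 of the genes, from a fit with 1 test per probe in which 9.93% of probes passed with TGFb in the control line and 9.13% in the knockdown line. The dimmer probes of Tgfbr2 (-0.51 ± 0.09, adjusted p = 0.00366), Acvr1 (0.62 ± 0.09, adjusted p = 0.000597) and Bmpr1b (-0.99 ± 0.07, adjusted p = 3.18e-06) moved in control cells in the direction of the brighter ones. In knockdown cells their changes were -0.36, 0.56 and -0.91, and all 3 passed. The dimmer Acvr1b probe gave 0.16 ± 0.11 in control cells and did not pass (adjusted p = 0.530), where the brighter gave 0.42, and 0.46 ± 0.11 in knockdown cells (adjusted p = 0.0198). Between the lines 28.3% of probes passed with vehicle and 29.4% with TGFb. The dimmer Bmpr1b probe was higher in the knockdown line by 0.68 and 0.76, and the dimmer Tgfbr2 probe passed under neither treatment (-0.15 and -0.00). The Acvr2a probes disagreed: the dimmer one was lower in knockdown cells by 0.33 ± 0.09 with vehicle (adjusted p = 0.0149) and by 0.25 ± 0.09 with TGFb (adjusted p = 0.0482), whereas the brighter gave -0.11 and -0.04 and did not pass.

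**Figure D4:**
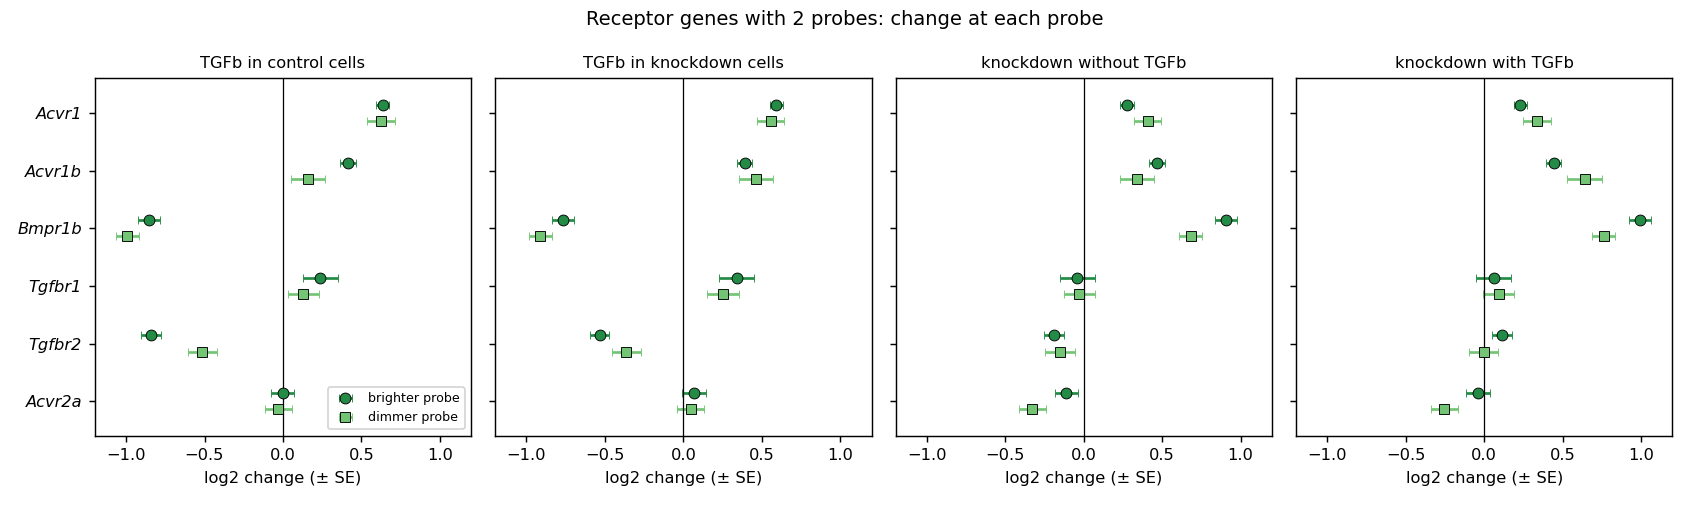
Log2 change at both probes of the 6 receptor genes that have 2 (circles for the brighter, squares for the dimmer), with SE bars, in 4 comparisons. The probes of Acvr1, Bmpr1b and Tgfbr2 lie on the same side of 0 with TGFb, and the Acvr1b probes are apart in control cells with TGFb (0.42 and 0.16).

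The receptors and co-receptors outside the 10 genes were also examined, and 8 of 11 could be tested. With TGFb, Acvr2b, the other activin type II receptor gene, fell by 0.51 ± 0.11 in control cells (limma adjusted p = 0.00779) and by 0.56 ± 0.11 in knockdown cells (adjusted p = 0.00482). Rgma, a BMP co-receptor gene, rose by 0.26 and 0.38 (adjusted p = 0.00878 and 0.000745). Rgmb, its relative, passed in knockdown cells (-0.36, adjusted p = 0.00775) and not in control cells (-0.21, adjusted p = 0.121). Cd109, a co-receptor that restrains TGFb signalling, gave 0.21 in knockdown cells (adjusted p = 0.0353, and 0.079 with normexp background correction) and was lower in the knockdown line (-0.53 with vehicle and -0.44 with TGFb, adjusted p = 3.56e-05 and 0.000142). Acvrl1 (ALK1), the type I receptor best known as a partner of endoglin, changed by -0.04 and -0.14 with TGFb (adjusted p = 0.962 and 0.594) and was higher in the knockdown line by 0.48 with vehicle (adjusted p = 0.0139) and by 0.38 with TGFb (adjusted p = 0.0403, and 0.126 with normexp background correction). Amhr2, the type II receptor of anti-Müllerian hormone, was lower in the knockdown line with TGFb (-0.41, adjusted p = 0.0302, and 0.253 with normexp background correction) and did not pass with vehicle (-0.30, adjusted p = 0.102). Between the lines these receptors thus gave 1 higher and 1 lower call of 8 with vehicle, and 1 and 2 with TGFb. Amhr2, Tdgf1 and Lrrc32 did not pass for the response to TGFb, and Acvr1c, Bambi and Hfe2 were too dim to test.

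Among other genes of the pathway, 2 of 6 receptor-regulated Smads and Smad4 rose in each line, namely Smad9 (1.18 ± 0.09 in control cells) and Smad3 (0.24 ± 0.05), against a list median of 0.12 in control cells. Of 11 inhibitory Smads and feedback genes, 10 rose in control cells and 9 in knockdown cells, with medians of 2.13 and 2.42. They include Smad6 (3.92 and 4.52), Pmepa1 (3.78 and 4.38) and Smad7 (2.83 and 3.31), whose product draws ubiquitin ligases to the TGFb receptor. Ligand genes split, with 5 higher and 2 lower of 17 tested in control cells and 4 and 2 in knockdown cells. Gdf5, a ligand of Bmpr1b, rose by 1.94 ± 0.16 and 2.34 ± 0.16, and Bmp6 (1.05 and 1.11) and Tgfb3 (0.89 and 1.02) rose as well, while Inhba, the activin A subunit gene, fell by 0.92 and 0.96. Extracellular antagonists and latency proteins gave 5 higher and 1 lower of 14 in the control line, and 6 and 1 in the knockdown line. The activin antagonist Fst (2.69 and 2.14), Fstl3 (1.58 and 1.89) and the BMP antagonist Nog (1.09 and 0.80) rose, and Sostdc1 fell by 1.10 and 0.64. Of 16 receptor partners and turnover genes, Traf6 (0.79 and 1.01) rose in both lines, Smurf2, a ubiquitin ligase of the receptor complex, in control cells (0.38 ± 0.06), and Cav1 fell in knockdown cells (-1.01 ± 0.14). With normexp background correction the control changes were -0.33 for Inhba, 1.04 for Gdf5, 0.39 for Bmp6, 0.72 for Nog and 0.76 for Smad9, and the knockdown change of Cav1 was -0.58, all past the threshold. With that correction Bmp6 (0.34, adjusted p = 0.0668) and Smad3 (0.15, adjusted p = 0.230) did not pass in knockdown cells.

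The genes whose 4 group means, centred per gene, lay nearest to those of Eng were Rcan1 (root mean square difference of 0.0139 on the log2 scale), Nog (0.0277) and Adrb1 (0.0530). For Bmpr1b they were Dmp1 (0.0281), Ptgfr (0.0659) and Olfr594 (0.0681). Each likeness rests on 4 group means of 12 arrays and is a description, with no test. Rcan1 rose with TGFb by 1.01 in control and 0.84 in knockdown cells, beside 1.04 and 0.82 for Eng. Dmp1 changed by -0.85 and -0.77 with TGFb, and was higher in the knockdown line by 0.85 with vehicle and 0.94 with TGFb, beside 0.91 and 1.00 for Bmpr1b.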

How the data were processed

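Per the file headers, the scanner software was Agilent Feature Extraction 10.7.3.1 and probes are placed on mm9. The deposited scanner files hold linear spot intensity, and values here start from the processed signal, an intensity from which the software had subtracted background, per the file headers. A table of log2 values was deposited by the authors as well. Its 12 columns have 1 common median, 7.93, and bottom out at 5.66, and each fitted its own array best. How those were normalized is unknown here.

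Control spots were dropped, outlier spots were set aside and spots of a probe were averaged. Each log2 processed signal was then taken relative to the 75th percentile of its array. A probe stayed in if some group had it well above background on all 3 arrays (29968 probes). The brightest such probe stood for its gene, named through RefSeq (24146 genes). Groups came from the labels. They were compared in 1 limma model (version 3.58.1, R 4.3.3, moderated by eBayes with a trend) over 12 arrays, 2-sided, with Benjamini-Hochberg adjustment over all genes at 0.05, and the script was tested on simulated data. Errors are SE of the model unless SD is given. There were 5 comparisons: the TGFb effect by line, the knockdown effect by treatment, and the difference of responses. Alternatives were normexp background correction (offset of 50), quantile or median scaling, other filters and probe rules, no trend of the prior, slide or replicate block, fewer groups in the model, the authors' values, each array left out, and a threshold of 0.01. The receptor genes, pathway lists and markers were chosen with earlier results of these data known. The text names all 10 receptor genes, each other receptor tested, up to 4 genes per pathway list with the largest called TGFb change (a gene this would name is not reported here), and 3 genes of like pattern for the receptor gene that rose most and the one that fell most. Slide 1 held a vehicle array of each line, slide 2 lacked TGFb-treated knockdown cells, all groups were on slide 3, and slide 4 had 3 TGFb arrays. Deviations from group means correlated above 0.1 in 12 of 12 pairs of arrays from different groups on 1 slide (0.18 to 0.58). Probes are not placed in exons or UTRs here, and no protein sequence was used here.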

Additional observations from a re-analysis of the deposited data

Results flagged for a closer look

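Pmepa1, a TGFb target that restrains receptor signalling by binding Smads, rose more in knockdown cells (4.38) than in control cells (3.78). The test of the difference of responses gave 0.60 ± 0.08 (limma adjusted p = 0.0154), whereas no receptor gene passed it.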

How the results depend on the processing

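Each receptor gene was tested again in each comparison under each alternative that could be run, and no change past the threshold turned its direction. Calls lost were those of Tgfbr3 and Bmpr2 with TGFb in control cells (15 retests), of Tgfbr2 in the knockdown line with vehicle (16) and of Acvr1 in the knockdown line with TGFb (1). Calls gained were 1 in control cells (Tgfbr1) and 5 in knockdown cells (Tgfbr1, Tgfbr3 and Bmpr1a). The difference of responses needs all 4 groups, so a model of fewer groups was not run for it. Over all genes, a threshold of 0.01 in place of 0.05 left 1571 of 2451 calls with TGFb in control cells, 1391 of 2291 in knockdown cells, 4360 of 6722 for the knockdown with vehicle, 4568 of 6998 for the knockdown with TGFb and 4 of 21 for the difference of responses. Scaling to the array median gave 1470 calls with TGFb in knockdown cells, 4344 for the knockdown with vehicle and 7 for the difference of responses. For that difference slide as a block gave 45 calls, and leaving out 1 array gave 4 (without control vehicle replicate 3) to 27 (without control vehicle replicate 2). Replicate numbers did not pair the samples: deviations of same-numbered arrays correlated from -0.53 to 0.58, above 0 in 6 of 18 pairs. With the replicate block 2060, 1871, 5869, 6151 and 11 genes were called in the comparisons in that order, and of the receptor calls it ended that of Tgfbr2 in the knockdown line with vehicle (adjusted p = 0.0664). The cause of these shifts was not tested. The number of arrays limits the precision, with a median SE of 0.10 over genes for a change with TGFb.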
